A study of Rattus norvegicus with 12 samples.

Results

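The comparison set rats sampled 3 h after acute corticosterone against adrenalectomised rats supplemented with corticosterone, and it rested on 4 of the 12 libraries of the series, 2 per group. The groups were taken from the sample labels, and all 12 libraries entered the statistical model so that the spread between replicates could be pooled. The tissue was the part of the hypothalamus that holds the paraventricular nucleus (PVH), from male, wild type Wistar rats aged 12 weeks. The supplemented adrenalectomy group (labelled ADX + Cort suppl, here supplemented ADX) had lost its adrenal glands and received corticosterone. The 3 h group (labelled acute Cort (1) 3 h) was sampled 3 h after corticosterone, and a companion group (acute Cort (1) 1 h) was sampled at 1 h. The labels did not state the adrenal status of the acutely treated rats, what the number in brackets means, the dose, the length of the supplementation, or how many animals made up a replicate. No group was labelled as a vehicle control, so handling, the giving of the hormone and the hormone itself cannot be told apart. The other 6 libraries were sham-operated rats (sham-ADX), rats given high corticosterone for 12 days and rats 7 days after adrenalectomy without supplement.

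Corticosterone, the principal glucocorticoid in rats, is released by the adrenal cortex after PVH neurons that make corticotropin-releasing hormone (Crh) and vasopressin (Avp) have driven the pituitary, and it acts back on the brain through the glucocorticoid receptor (Nr3c1) and the mineralocorticoid receptor (Nr3c2), which are ligand-activated transcription factors. Direct target genes such as Per1, Fkbp5, Sgk1 and Tsc22d3 are known to respond within hours, while immediate early genes such as Fos and Egr1 respond to neuronal activity within minutes and then return.

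The supplemented ADX libraries held 36249006 and 31810257 fragments, the 1 h libraries 32201860 and 17674159 and the 3 h libraries 20684695 and 22003888. Levels are given as fragment counts relative to library size (CPM), scaled between libraries by TMM and differences as log2 fold changes with their SE. Unless another tool is named, the adjusted p is that of edgeR's quasi-likelihood test over the 12856 genes that passed a filter on low counts, out of 17310. Called means an adjusted p under 0.05. With n = 2 per group the p values rest on the spread between libraries alone, which may be technical, and an exact permutation of 4 libraries could not go below p = 0.333. The dissection was checked by marker genes. PVH markers were present (the summed level of 11 markers, among them Sim1, Otp, Avp and Oxt, was 1240 to 1490 CPM in the 6 libraries of these 3 groups) and the only pituitary marker that passed the filter, Lhb, was under 0.5 CPM in each. The libraries differed in their content of neighbouring thalamus and of blood, with values beside the results below, and in the 18S ribosomal RNA gene Rn18s, at 1176.9 and 1717.8 CPM in supplemented ADX and 582.4 and 580.4 CPM at 3 h.

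Nab2 was the 1 gene called at 3 h (0.00778% of genes tested), and it was higher. Nab2 encodes a co-repressor that binds Egr transcription factors and is itself induced by them, closing a feedback loop. It stood at 7.96 and 8.48 CPM in supplemented ADX, 10.8 and 11.8 CPM at 1 h and 13.7 and 13.6 CPM at 3 h. The 3 groups did not overlap, and the 3 h libraries were above all 10 others of the series, where the highest level outside the acute groups was 9.72 CPM in a library of the 12 day group. Nab2 was 1.66-fold higher at 3 h than in supplemented ADX (log2 fold change 0.73 ± 0.09, 95% interval 0.53 to 0.94, adjusted p = 0.0177 by edgeR). At 1 h it was not called (0.45, adjusted p = 0.11), and neither was the step from 1 h to 3 h (0.29 ± 0.10, adjusted p = 0.31). Its relative Nab1 was at 44.8 and 46.3 CPM in supplemented ADX and 43.5 and 43.4 CPM at 3 h, a log2 fold change of -0.07 ± 0.05 (adjusted p = 0.62). The size of the Nab2 difference was stable, between 0.57 and 0.78 in 17 alternative analyses, but the call was not. It was lost without supplemented ADX replicate 1 or 2 (adjusted p = 0.21 and 0.184), without 3 h replicate 1 or 2 (0.0784 and 0.122), with the thalamus markers as a covariate (0.0779), and with limma on log2 FPKM (0.367 with a pseudocount of 1 and 0.37 with 0.1).

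**Figure D1:**
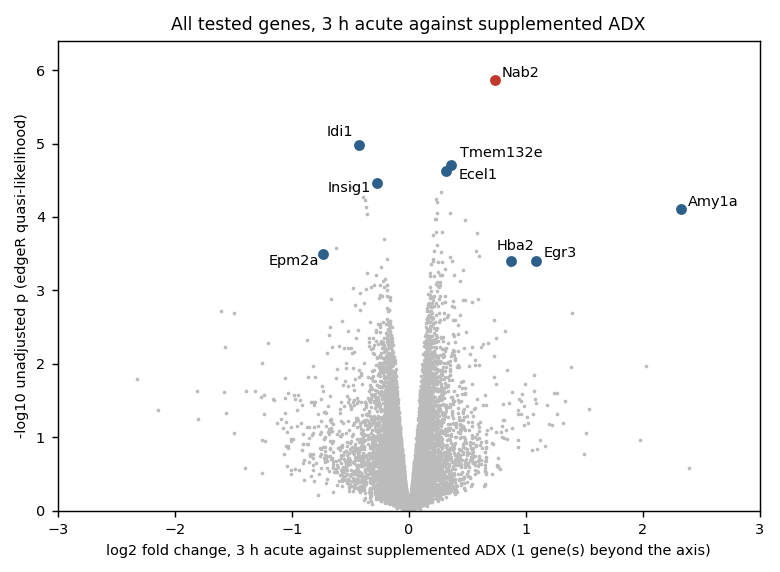
Log2 fold change of 3 h acute against supplemented ADX (horizontal) and -log10 of edgeR's unadjusted p (vertical) for all tested genes, 1 of which lies beyond the horizontal axis. Nab2 (red) is the gene past an adjusted p of 0.05. Blue points are genes described in the text, among them Idi1 and Insig1 on the lower side.

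Most other differences were small, and larger ones, such as that of Amy1a below, were not called. The median log2 fold change of all tested genes was -0.003, and the median 95% interval reached 0.18 log2 units to either side, equal to 1.13-fold. No gene was called lower. At an unadjusted p under 0.05 there were 857 genes higher (6.67%) and 755 lower (5.87%), and DESeq2 called 34 genes (0.264%), 23 higher and 11 lower. The libraries of the groups did not overlap for 22.2% of genes on the higher side and 23.6% on the lower side, 45.8% in all, which is the background for every count of separated libraries below.

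At a looser adjusted p under 0.1 there were 16 genes on the higher side (0.124%) and 8 on the lower side (0.0622%). These are described because they came closest to the threshold, and they were picked after their values were seen. On the higher side Tmem132e, a membrane protein gene, was at 55.8 and 51.2 CPM in supplemented ADX and 70.0 and 67.2 CPM at 3 h (0.36 ± 0.06, adjusted p = 0.0674). Ecel1, a neuronal endopeptidase-like protein, was at 93.2 and 92.5 CPM against 120 and 112 CPM (0.32 ± 0.05, adjusted p = 0.0674 by edgeR). The actin-binding protein drebrin (Dbn1), the protocadherin Pcdh8, the AMPA receptor-associated protein Shisa7, the phosphatase Ptpn5 and the adhesion receptor Celsr3 differed by 0.24 to 0.27 log2 units, with adjusted p between 0.0674 and 0.0711. Their values at 1 h lay on the same side of supplemented ADX as those at 3 h. For Pcdh8, for example, 1 h was at 148 and 154 CPM and 3 h at 153 and 152 CPM, against 128 and 124 CPM in supplemented ADX. Both comparisons use the same supplemented ADX libraries, so the 1 h values are not separate support for the 3 h differences.

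Larger in fold but thin in counts was Amy1a, a salivary-type amylase gene, at 0.274 and 0.282 CPM in supplemented ADX, 0.401 and 0.554 CPM at 1 h and 1.45 and 1.38 CPM at 3 h (2.33 ± 0.43, adjusted p = 0.0687). Amylase genes form a family of near-identical copies, so fragments could be split between them and the value is uncertain. Htr3a, a subunit of the ionotropic serotonin receptor, was at 4.73 and 4.79 CPM in supplemented ADX and 7.28 and 7.03 CPM at 3 h (0.59 ± 0.12, adjusted p = 0.0917). On the lower side, Fam212b was at 16.7 and 17.2 CPM against 13.0 and 11.2 CPM (-0.49 ± 0.09, adjusted p = 0.0674), and the transcription factor Foxp2 at 52.2 and 51.2 CPM against 39.9 and 40.6 CPM (-0.36 ± 0.07, adjusted p = 0.0687). Also on that side were Zc3h6 (-0.39), Arhgap5, a GTPase-activating protein (-0.27), and the sterol genes Idi1 and Insig1 described below.

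Several immediate early genes had their highest levels at 1 h and levels at or below supplemented ADX at 3 h. None of these differences was called by edgeR on the 12 libraries. Fos, a subunit of the AP-1 transcription factor, was at 10.6 and 12.4 CPM in supplemented ADX, 21.5 and 24.9 CPM at 1 h and 7.86 and 7.66 CPM at 3 h. Egr1, an activity-dependent zinc finger factor, was at 22.9 and 20.1 CPM, then 39.4 and 45.6 CPM, then 16.5 and 17.0 CPM. Nr4a1, an orphan nuclear receptor, was at 13.4 and 13.0 CPM, then 18.2 and 20.0 CPM, then 8.63 and 9.35 CPM. For all 3 genes both 1 h libraries were highest and both 3 h libraries lowest of the 3 groups. Nr4a3 and the AP-1 subunit Junb were also highest at 1 h, and at 3 h were near their supplemented ADX levels (Nr4a3 9.20 and 9.08 against 9.11 and 9.98 CPM).

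Against supplemented ADX, the 3 h values of Fos (-0.56 ± 0.37, adjusted p = 0.586), Egr1 (-0.36 ± 0.24, adjusted p = 0.584) and Nr4a1 (-0.55 ± 0.17, adjusted p = 0.24) were not called. Their differences from 1 h to 3 h were -1.57 ± 0.36 for Fos, -1.33 ± 0.23 for Egr1, -1.08 ± 0.16 for Nr4a1 and -1.42 ± 0.21 for Nr4a3. None was called by edgeR in the 12-library model (adjusted p = 0.233, 0.174, 0.0657 and 0.103). These genes varied within other groups, with Fos at 12.3 and 5.35 CPM in the unsupplemented ADX libraries. In a fit of the 6 libraries of the Cuffdiff run that holds the 3 groups, all 4 were called in the 3 h against 1 h comparison (adjusted p = 5.9e-05 for Fos, Egr1 and Nr4a3, and 3.57e-04 for Nr4a1). DESeq2 on the 12 libraries also called all 4 (adjusted p = 0.0271 for Fos, 1.94e-04 for Egr1, 2.49e-06 for Nr4a1 and 1.13e-09 for Nr4a3), as did limma on log2 FPKM. The edgeR fits with a replicate block or with the thalamus markers as a covariate called none of them.

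Egr3, a member of the Egr family, did not follow Egr1. It was at 0.875 and 0.720 CPM in supplemented ADX, 1.64 and 1.28 CPM at 1 h and 1.64 and 1.78 CPM at 3 h, so the 3 h libraries were not below the 1 h libraries (1.09 ± 0.24 against supplemented ADX, adjusted p = 0.13). Fosl2, an AP-1 subunit, was at 7.33 and 6.38 CPM, 9.85 and 12.5 CPM and 9.64 and 9.13 CPM in the same order (0.45 ± 0.17 at 3 h, adjusted p = 0.305). Of the 27 genes of the immediate early list, 14 had a positive and 13 a negative difference at 3 h, with a median of 0.04. At 1 h 22 of them were positive. Nab2 was the member called at 3 h, and 9 members had 3 h libraries entirely above supplemented ADX and 10 entirely below. MAP kinase phosphatases and Sprouty-type inhibitors, which damp the signals that induce these genes, split 9 to 9. Among them Dusp6, the ERK phosphatase, was at 22.6 and 25.8 CPM against 16.8 and 18.3 CPM (-0.46 ± 0.12, adjusted p = 0.186), and Spred3 at 21.4 and 19.7 CPM against 29.2 and 24.3 CPM (0.38 ± 0.10, adjusted p = 0.212). With the thalamus markers as a covariate these became -0.28 for Dusp6 and 0.24 for Spred3, and Spred3 was also at 0.24 without 3 h replicate 1. The fit of the 4 libraries compared called both (adjusted p = 0.0121 and 0.0461).

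**Figure D2:**
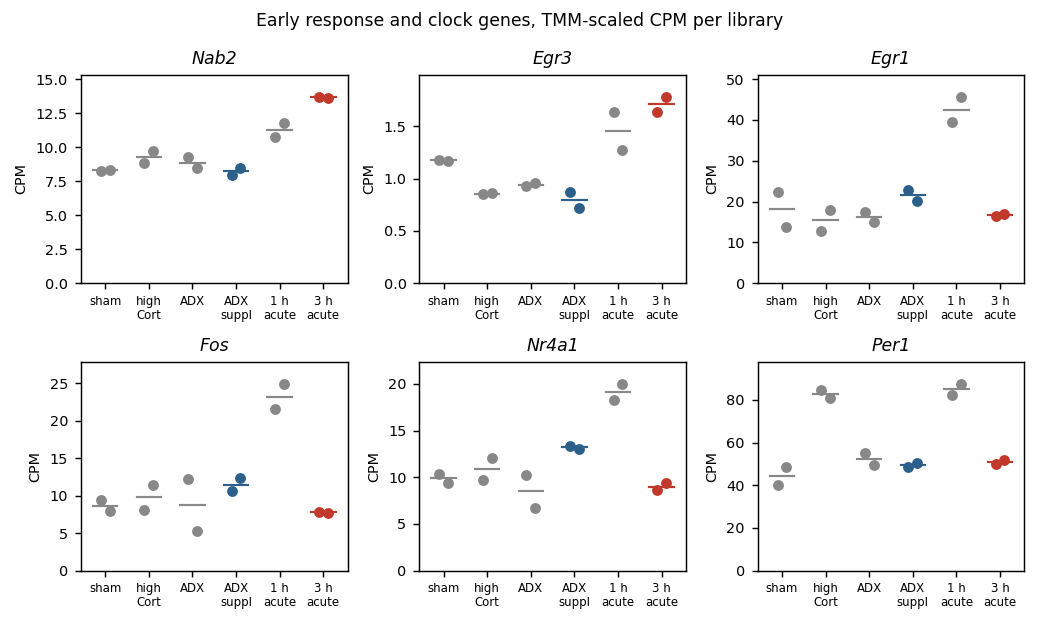
CPM (vertical) of Nab2, Egr3, Egr1, Fos, Nr4a1 and Per1 in each library, by group, with 2 points per group and a bar at their mean. Fos, Egr1, Nr4a1 and Per1 were highest at 1 h among the 3 rightmost groups of each panel, while Nab2 and Egr3 were at or above their 1 h level at 3 h.

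The clock and glucocorticoid target gene Per1 was higher at 1 h than in supplemented ADX or at 3 h. The groups are different rats, and the sample details used here give no time of day. Per1 was at 48.7 and 50.5 CPM in supplemented ADX, 82.5 and 87.4 CPM at 1 h and 49.8 and 51.9 CPM at 3 h. It was 1 of 6 genes called at 1 h (0.0467%), of which 5 were higher (0.0389%), and its difference was 0.77 (adjusted p = 0.00174). It was also 1 of 3 genes called between 3 h and 1 h (0.0233%), of which 2 were lower at 3 h (0.0156%). Per1 was lower at 3 h than at 1 h by 0.74 ± 0.08 on the log2 scale (adjusted p = 0.00309 by edgeR). Without 3 h replicate 1 or 2 that difference was -0.71 and -0.77, and it was not called. At 3 h its difference from supplemented ADX was 0.04 ± 0.08, and the 95% interval of -0.13 to 0.21 bounds it. Per2 was also called at 1 h (0.41, adjusted p = 0.00588) and was at 71.4 and 68.8 CPM in supplemented ADX, 91.0 and 95.6 CPM at 1 h and 82.7 and 78.3 CPM at 3 h (0.20 ± 0.05 at 3 h, adjusted p = 0.188). Its 3 h libraries lay between the other groups and overlapped neither. Of 19 tested clock genes, 13 were negative at 3 h, with a median of -0.06 and none called. The retinoid-related receptor Rorb was at 40.3 and 37.5 CPM against 35.9 and 30.5 CPM (-0.23 ± 0.08, adjusted p = 0.278), and its difference was -0.12 without 3 h replicate 2 and -0.35 without 3 h replicate 1.

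Most other glucocorticoid targets differed little between 3 h and supplemented ADX. The supplemented rats also received the hormone, and its part in these values was not tested. Of 45 listed genes 41 were tested, 25 were positive, the median was 0.02 and none was called, with 3 higher and 1 lower at an unadjusted p under 0.05. DESeq2 called 1 of them, Zbtb16, described below. Fkbp5, the co-chaperone that damps the receptor, was at 29.4 and 29.2 CPM in supplemented ADX and 31.2 and 32.1 CPM at 3 h (0.11, 95% interval -0.08 to 0.30). The interval was -0.14 to 0.23 for the leucine zipper protein Tsc22d3, -0.16 to 0.44 for the kinase Sgk1 and -0.09 to 0.10 for the Krüppel-like factor Klf9. Differences inside these intervals were not excluded by these libraries. The highest of the abundant members was Zbtb16, a zinc finger repressor that glucocorticoids induce in many tissues. It was at 14.9 and 12.9 CPM in supplemented ADX, 16.2 and 19.2 CPM at 1 h and 21.5 and 21.3 CPM at 3 h (0.62 ± 0.17, adjusted p = 0.24), with the 3 groups in separate ranges. It was called by DESeq2 (adjusted p = 0.0351) and in the edgeR fit of the 4 libraries compared (0.00282), and was 0.44 with the thalamus markers as a covariate (0.576). Klf15, a metabolic glucocorticoid target, was at 19.1 and 19.4 CPM, then 21.4 and 24.1 CPM, then 22.7 and 21.9 CPM (0.21 ± 0.07, adjusted p = 0.273).

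The receptors were measured beside their targets. Nr3c1 was at 205 and 221 CPM in supplemented ADX and 194 and 186 CPM at 3 h (-0.16 ± 0.06, adjusted p = 0.305), and Nr3c2 at 46.2 and 49.9 CPM against 44.1 and 42.2 CPM (-0.15 ± 0.06, adjusted p = 0.33). Neither pair of groups overlapped and neither was called. The efflux pump gene Abcb1a, whose product limits the entry of some steroids to the brain, was at 73.0 and 72.2 CPM against 67.5 and 64.1 CPM (-0.14 ± 0.05, adjusted p = 0.293). In the list of receptors, chaperones and steroid-activating enzymes 7 of 18 were positive and the median was -0.00.

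Several genes of cholesterol synthesis were lowest at 3 h. The mevalonate pathway makes isoprenoids and cholesterol, and its genes are transcribed under SREBP factors that Insig proteins hold back when sterols are plentiful. The upstream sequences of the sterol genes Idi1 and Insig1, which came near the threshold, are shown with that of Nab2 for regulatory context. They were not picked by rank alone. Tmem132e, Ecel1 and Arhgap5 had unadjusted p values between those of Idi1 and Insig1 by edgeR. Each is the 250 bases before the annotated start, from RefSeq on the GRCr8 build, all on the minus strand, at chr7:65389256-65389505 for Nab2, chr17:66547525-66547774 for Idi1 and chr4:8057770-8058019 for Insig1. Capitals mark matches to CCAAT, read on the other strand as ATTGG, and to CACGTG.
Nab2: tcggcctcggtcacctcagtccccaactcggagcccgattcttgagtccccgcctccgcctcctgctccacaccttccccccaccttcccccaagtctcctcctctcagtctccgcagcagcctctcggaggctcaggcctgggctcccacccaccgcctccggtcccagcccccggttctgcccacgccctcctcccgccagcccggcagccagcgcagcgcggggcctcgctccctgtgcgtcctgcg
Idi1: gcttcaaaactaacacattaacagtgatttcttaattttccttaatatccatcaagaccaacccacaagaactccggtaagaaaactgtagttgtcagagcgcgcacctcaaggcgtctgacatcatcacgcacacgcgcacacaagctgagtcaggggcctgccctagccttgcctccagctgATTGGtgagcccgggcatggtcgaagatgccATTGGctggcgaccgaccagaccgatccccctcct
Insig1: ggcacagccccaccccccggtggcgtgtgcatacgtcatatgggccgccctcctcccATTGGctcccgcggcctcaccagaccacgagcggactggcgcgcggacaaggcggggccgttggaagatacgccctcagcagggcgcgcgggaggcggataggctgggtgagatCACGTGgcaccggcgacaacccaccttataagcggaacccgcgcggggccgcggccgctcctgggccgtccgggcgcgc
Both strands were searched for CCAAT (the CCAAT box), CACGTG (an E-box), TGACGTCA (the cyclic AMP response element) and GCGNGGGCG (the Egr site), none of which contains another. CCAAT was found in Idi1 at 66 to 62 and at 35 to 31 bases before the start, and in Insig1 at 193 to 189 bases before it. Insig1 also held CACGTG at 79 to 74 bases before the start, and the Nab2 window held none of the 4. Over the 33469 promoters of that table, windows of the same length held CCAAT in 34%, CACGTG in 5.59%, TGACGTCA in 1.59% and GCGNGGGCG in 4.29%. A match is a description of letters and not a binding site.

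Idi1, isopentenyl diphosphate isomerase, was at 49.0 and 53.9 CPM in supplemented ADX, 49.8 and 49.0 CPM at 1 h and 39.3 and 37.5 CPM at 3 h. Both 3 h libraries were below every other library of the series, where the lowest was 46.2 CPM. The difference from supplemented ADX was -0.42 ± 0.07 (adjusted p = 0.0674) and that from 1 h was -0.37 ± 0.07 (adjusted p = 0.0918). Insig1, the sterol sensor partner, was at 183 and 185 CPM, 182 and 183 CPM and 145 and 159 CPM (-0.27 ± 0.05 against supplemented ADX, adjusted p = 0.0674, and -0.26 ± 0.05 against 1 h, adjusted p = 0.0918).

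Stard4, a cytosolic sterol carrier (-0.24 ± 0.05, adjusted p = 0.141), Hsd17b7, a late sterol synthesis enzyme (-0.48 ± 0.12, adjusted p = 0.163), and squalene epoxidase Sqle (-0.12 ± 0.05, adjusted p = 0.344) also had 3 h libraries entirely below supplemented ADX. Hmgcs1, the synthase at the head of the pathway, was at 447 and 487 CPM against 435 and 450 CPM, a difference of -0.08 ± 0.05 (adjusted p = 0.555). All 30 listed genes were tested. At 3 h 19 were negative and 11 positive, with a median of -0.04, and 11 had libraries entirely below and 4 entirely above supplemented ADX. At an unadjusted p under 0.05 there were 7 lower and none higher, and DESeq2 called 3, among them Idi1 (adjusted p = 0.00354) and Insig1 (0.00694). The edgeR fits of the 4 libraries compared and without a low-count filter also called these 2. Limma on log2 FPKM with a pseudocount of 1 called neither (adjusted p = 0.396 and 0.424). EdgeR with the thalamus markers as a covariate also called neither (0.0779 and 0.148). Without 1 of the 4 libraries compared, Idi1 was -0.49 to -0.35 and Insig1 -0.34 to -0.21, with neither called. The summed level of the list was 4880 and 4850 CPM in supplemented ADX and 4740 and 4950 CPM at 3 h. At 1 h 23 of the 30 were positive.

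**Figure D3:**
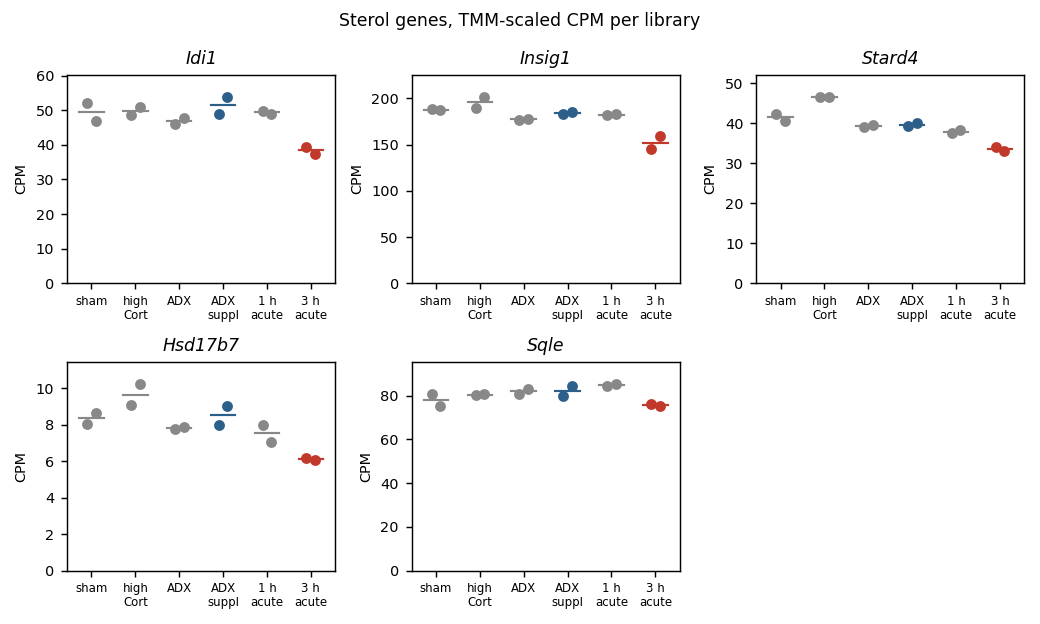
CPM (vertical, from 0) of Idi1, Insig1, Stard4, Hsd17b7 and Sqle in each library, by group, with 2 points per group and a bar at their mean. In each panel the 3 h libraries (red) lie below the supplemented ADX libraries (blue), at 39.3 and 37.5 against 49.0 and 53.9 CPM for Idi1.

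Neuropeptide genes of the PVH had higher values at 3 h without passing edgeR's test on the 12 libraries, in libraries where markers of the neighbouring thalamus had lower values. Crh was at 14.3 and 18.9 CPM in supplemented ADX, 18.6 and 15.2 CPM at 1 h and 20.8 and 23.8 CPM at 3 h (0.43 ± 0.19, adjusted p = 0.409). Avp was at 149 and 142 CPM, 134 and 124 CPM and 170 and 201 CPM (0.35 ± 0.11, adjusted p = 0.29), and oxytocin (Oxt) at 305 and 318 CPM, 313 and 277 CPM and 326 and 415 CPM (0.25 ± 0.25, adjusted p = 0.726). For all 3 both 3 h libraries lay above the supplemented ADX and 1 h libraries, and 3 h replicate 2 was the highest of these groups. Crh was higher still in the unsupplemented ADX libraries, at 25.6 and 26.9 CPM. Without 3 h replicate 2 the difference was 0.23 for Avp and 0.07 for Oxt, and without supplemented ADX replicate 1 it was 0.24 for Crh. In the fit of the 4 libraries compared Avp was called (adjusted p = 0.0246). Crhbp, which binds and neutralises Crh, was at 3.39 and 2.88 CPM against 4.34 and 4.63 CPM (0.51 ± 0.18, adjusted p = 0.27). All 9 tested members of the Crh and vasopressin-oxytocin list were positive, with a median of 0.35, and 7 had libraries entirely above supplemented ADX.

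Thyrotropin-releasing hormone (Trh) was at 81.4 and 83.6 CPM in supplemented ADX and 95.6 and 124 CPM at 3 h (0.42 ± 0.13, adjusted p = 0.27). Vgf, the secreted precursor of several peptides, was at 249 and 240 CPM, 274 and 234 CPM and 286 and 310 CPM (0.28 ± 0.06, adjusted p = 0.13), and proenkephalin (Penk) at 71.6 and 64.6 CPM, 71.5 and 79.2 CPM and 84.8 and 80.5 CPM (0.28 ± 0.08, adjusted p = 0.24). Of 21 tested peptide genes outside the Crh and vasopressin-oxytocin list, 15 were positive, with a median of 0.19, and DESeq2 called Vgf (adjusted p = 0.021) and Trh (0.0282). The edgeR fit of the 4 libraries compared called Vgf (0.00936) and Penk (0.0257) but not Trh (0.24). Vgf was also called without the 1 h group (adjusted p = 0.0342) or without 1 h replicate 1 or 2 (0.0339 and 0.0312). Without 3 h replicate 2 the difference was 0.21 for Trh and 0.22 for Vgf, and neither was called.

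**Figure D4:**
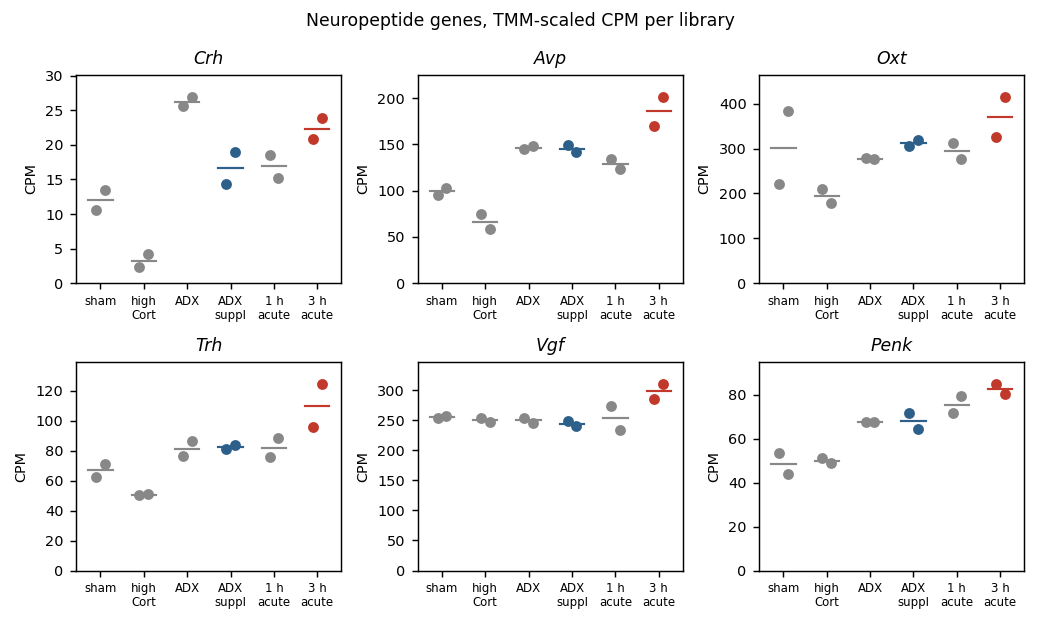
CPM (vertical, from 0) of Crh, Avp, Oxt, Trh, Vgf and Penk in each library, by group, with 2 points per group and a bar at their mean. The 3 h libraries (red) were above the supplemented ADX libraries (blue) in every panel, at 20.8 and 23.8 against 14.3 and 18.9 CPM for Crh, and no panel passed edgeR's test on the 12 libraries.

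Markers of the thalamus, which adjoins the dissected block, had lower values at 3 h. All 13 tested thalamus markers were lower at 3 h than in supplemented ADX, with a median of -0.41, and 11 had libraries entirely below. Their summed level was 1610 and 1660 CPM in supplemented ADX, 1410 and 876 CPM at 1 h and 1370 and 1300 CPM at 3 h. Prkcd, a thalamic protein kinase C, was at 171 and 166 CPM against 118 and 93.7 CPM, and the thalamic transcription factor Tcf7l2 at 220 and 232 CPM against 176 and 186 CPM. None was called in the 12-library model, where the 1 h libraries alone spanned 121 to 41.0 CPM for Prkcd, but the fit of the 4 libraries compared called 8 of the 13 lower, against 0.706% of all genes. Markers of the PVH lineage, a list that itself holds Crh, Avp, Oxt and Trh, were positive in 10 of 11 (median 0.11). For the anterior hypothalamus with the suprachiasmatic nucleus, 10 of 14 markers were positive (median 0.27), of which 8 had libraries entirely above supplemented ADX, and the other 4 had libraries entirely below it. None of these markers was called, with Dlx1 at 0.35 ± 0.12 (adjusted p = 0.273) and Rorb at -0.23 ± 0.08 (adjusted p = 0.278). Avp is in both lists, so their counts are not separate from the peptide values. In bulk tissue, fewer cells of a type and less RNA per cell cannot be told apart. With the thalamus markers as a covariate the difference was 0.63 for Crh, 0.45 for Avp, 0.54 for Oxt, 0.42 for Trh, 0.37 for Vgf and 0.15 for Penk, and none was called (the lowest adjusted p was 0.0503, for Vgf). The part of the block's makeup in the peptide values was otherwise not tested.

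Blood genes also had higher values at 3 h. The beta globin gene Hbb was at 12.6 and 11.8 CPM in supplemented ADX, 10.2 and 9.26 CPM at 1 h and 16.8 and 20.3 CPM at 3 h. Its difference at 3 h was 0.91 ± 0.14 against 1 h (adjusted p = 0.0413 by edgeR) and 0.60 ± 0.13 against supplemented ADX (adjusted p = 0.13). The difference from 1 h was not called without 3 h replicate 2 (0.77), 1 h replicate 2 (0.86), or supplemented ADX replicate 1 or 2 (0.92 each). Hba2, an alpha globin gene, was at 20.0 and 18.5 CPM in supplemented ADX and 32.2 and 38.3 CPM at 3 h (0.87 ± 0.16, adjusted p = 0.13), and was called by DESeq2 (adjusted p = 9.61e-05). All 6 tested erythrocyte genes were positive, and 3 of them had 3 h libraries entirely above supplemented ADX. The sum of the 6 was 40.8 and 34.7 CPM in supplemented ADX, 34.7 and 28.6 CPM at 1 h and 56.1 and 69.2 CPM at 3 h. Globin genes have near-identical copies, so the split between them is uncertain, and the part of blood content in other results was not tested.

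Vascular, glial and immune lists showed no called gene at 3 h. Of 20 endothelial markers 12 were positive, with a median of 0.03. The VEGF receptor gene Kdr was at 51.9 and 54.2 CPM in supplemented ADX, 44.9 and 40.3 CPM at 1 h and 45.6 and 46.9 CPM at 3 h (-0.20 ± 0.07, adjusted p = 0.296). Of 16 microglial markers 8 were positive, with P2ry12, a purinergic receptor of resting microglia, at 15.6 and 15.1 CPM against 12.7 and 12.2 CPM (-0.30 ± 0.10, adjusted p = 0.257). Oligodendrocyte precursor markers were negative in 6 of 9 (median -0.16), with Ptprz1 at 824 and 839 CPM against 749 and 711 CPM (-0.19 ± 0.05, adjusted p = 0.178). Among astrocyte markers 8 of 15 were positive (median 0.00), and of 20 inflammatory genes 9 were positive (median -0.01). Interferon response and antigen processing genes were negative in 24 of 26 (median -0.12), but without 3 h replicate 1 there were 13 positive members and without supplemented ADX replicate 2 there were 7, so that count rested on those libraries.

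Receptor and channel genes showed small differences. Of 38 glutamate and GABA receptor subunits 29 were negative, with a median of -0.09 and none called. With the thalamus markers as a covariate 14 rather than 9 were positive. The GABA-A receptor subunit Gabrg1 was at 151 and 155 CPM against 140 and 134 CPM (-0.16 ± 0.05, adjusted p = 0.24) and the kainate receptor subunit Grik5 at 208 and 191 CPM against 228 and 221 CPM (0.17 ± 0.05, adjusted p = 0.234). Of 36 potassium channel genes 19 were positive, with a median of 0.00. The leak channel gene Kcnk3 was at 44.0 and 43.6 CPM in supplemented ADX, 49.1 and 43.8 CPM at 1 h and 54.5 and 52.3 CPM at 3 h (0.29 ± 0.06, adjusted p = 0.0917), and the sodium-activated channel gene Kcnt1 was at 115 and 104 CPM against 132 and 129 CPM (0.25 ± 0.06, adjusted p = 0.13). Chaperone genes of the heat shock and unfolded protein responses split 15 to 16 (median -0.01).

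**Figure D5:**
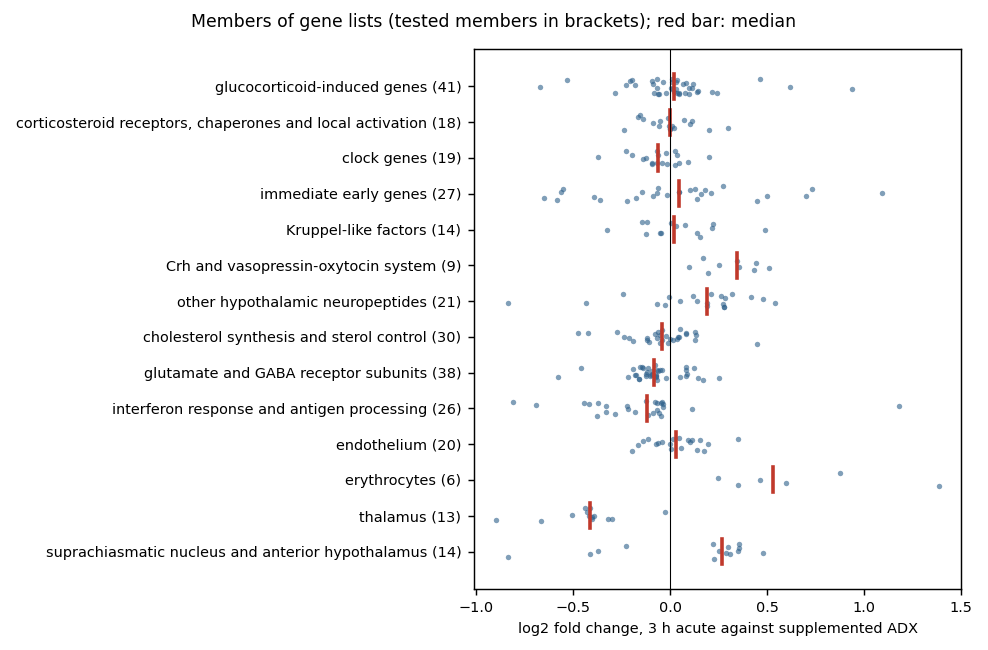
Log2 fold change of 3 h acute against supplemented ADX (horizontal) for the tested members of 14 gene lists, 1 point per gene, with a red bar at each list's median. The thalamus list lies at a median of -0.41 and the Crh and vasopressin-oxytocin list at 0.35, while the glucocorticoid-induced list centres at 0.02.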

How the data were processed

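The 12 mRNA libraries from rat hypothalamus were analysed. Per the submitters' processing notes, the tools were CASAVA 1.8.2, TopHat2 2.1.1 and Cufflinks 2.2.1 with rat build rn6, while the sources used here give neither annotation nor strand setting. The deposited raw fragments per gene are expected counts that the authors left unscaled. Fractional values (0.751%, in 233 genes) were rounded, which moved them by 0.5 or less. The authors' FPKM values, scaled within 1 Cuffdiff run per the file headers, served as an alternative, and the deposited scaled fragments, a signal that the authors normalized within a run, were not used. The groups compared shared a run. In 4 cells of 3 genes the status was FAIL, and these were kept.

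In R 4.3.3, edgeR 4.0.16 kept 12856 of 17310 identifiers (filterByExpr, minimum count 10, total 15), scaled by TMM and fitted 1 robust quasi-likelihood model with 6 group coefficients (6 residual degrees of freedom, common biological coefficient of variation 0.047). Contrasts were 3 h minus supplemented ADX, 1 h minus supplemented ADX and 3 h minus 1 h, 2-sided, with Benjamini-Hochberg adjustment over all genes. The scripts were tested on simulated data.

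The comparison, its members and the 33 gene lists were chosen with earlier results of these data known. Named were up to 15 called genes a side, called list members, otherwise the 2 members of smallest p in a list, and 13 genes fixed by name (Crh, Avp, Oxt, Trh, both receptors, Fkbp5, Tsc22d3, Per1, Sgk1, Klf9, Fos, Egr1). The genes near the threshold and the further early response, sterol, thalamus and Nab genes were added after their values were seen. A few genes that these rules name are not reported here. Alternatives were RLE scaling, other filters, DESeq2 1.42.0, limma 3.58.1 on log2 FPKM (pseudocounts 1 and 0.1), fits of 6 or 4 libraries, a replicate block, a thalamus score covariate, and leaving out libraries.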

Additional observations from a re-analysis of the deposited data

Results flagged for a closer look

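The 3 h and 1 h differences from supplemented ADX themselves differed for the genes below, by edgeR's test of the contrast between the acute groups. Per1 was lower at 3 h than at 1 h by a log2 difference of -0.74 ± 0.08 (adjusted p = 0.00309, both 3 h libraries below both 1 h libraries), the clock gene having been called higher at 1 h. Hbb, the beta globin gene, differed by 0.91 ± 0.14 (adjusted p = 0.0413), beside an erythrocyte gene sum of 56.1 and 69.2 CPM at 3 h against 34.7 and 28.6 CPM at 1 h.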

How the results depend on the processing

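For 3 h against supplemented ADX, 1 gene was called, and 1 with RLE scaling, a stricter filter, the replicate block or limma with a pseudocount of 0.1. The count was 20 without a filter, 34 with DESeq2, 2 with limma and a pseudocount of 1, 2 in the fit of 6 libraries (Nab2 and Hba2), 154 in the fit of the 4 libraries compared (65 higher, 89 lower) and 0 with the thalamus covariate (1068 at an unadjusted p under 0.05). The limma calls were Mir6321 and Rmrp, listed at 0 in both 3 h libraries and at no more than 9 fragments elsewhere in the comparison. Leaving out a library gave 0 to 33, being 0 without any of the 4 compared (719 to 1506 at an unadjusted p under 0.05), 32 and 33 without 1 h replicate 1 or 2, and 31 without the 1 h group, the last 3 being alternatives chosen after seeing the data. DESeq2 gave no adjusted p for 997 genes. For 1 h against supplemented ADX the count of 6 became 16 without a filter, 76 with DESeq2, 18 with 6 libraries, 3 with the replicate block, 1 with the thalamus covariate, and 1 to 624 with a library left out, 624 being without 1 h replicate 1. For 3 h against 1 h the count of 3 became 5 without a filter, 24 with DESeq2, 10 with limma (either pseudocount), 10 with 6 libraries, 9 with 4, and 0 to 35 with a library left out, 0 without 3 h replicate 2 and 35 without 1 h replicate 1. A left-out library assumes that the lone one varies like the other groups, and the cause of these shifts was not tested beyond the libraries and genes that entered.

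With the thalamus covariate Prkcd (0.06) and Tcf7l2 (0.06) changed sign, and 9 thalamus markers were positive. The covariate was the mean level of these same markers, so a shift in their own values was built in. Values near 0 changed sign when a library was left out. The ranges were -0.17 to 0.02 for Pdgfrb, -0.01 to 0.10 for Tsc22d3, -0.00 to 0.02 for Klf9, -0.13 to 0.01 for Nr4a3 and -0.96 to 0.30 for the sparse Lhb at 3 h, and -0.13 to 0.01 for Idi1 at 1 h. Deviations of same-numbered libraries correlated at 0.003 between supplemented ADX and 3 h, 0.113 between 1 h and 3 h and -0.255 between supplemented ADX and 1 h (10192 genes), and the labels tie the numbers to nothing shared, so they were not read as pairs. The block lost the Hbb call between 3 h and 1 h (adjusted p = 0.0651) and left Nab2 at 0.0419.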

Other observations

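Differences at 3 h were related to gene length in 1 library more than in the others. For 9505 genes at 5 CPM or more with a RefSeq span on GRCr8 (93.3% of 10192), the Spearman correlation across genes between span and log2 fold change was -0.24 for 3 h against supplemented ADX and 0.07 for 1 h, given as a description, since genes are not independent replicates and share the same libraries. The median difference at 3 h was 0.04 in the fifth of genes with the shortest span and -0.04 in the fifth with the longest. The level of the longest relative to the shortest genes was -0.03 in 3 h replicate 1 and -0.14 in 3 h replicate 2, against -0.02 and -0.01 in the supplemented ADX libraries. Its part in the small differences described above was not tested.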
